A study of Mus musculus with 147 samples.

Results

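A set of 8 transcription regulators of the male germ line were followed through the mouse testis from birth to adulthood. They were Mybl1, Tcfl5, Rfx2, Crem, Sox30, Taf7l, Pou5f2 and Rfx3, 8 of the 31053 genes of the UMI count table. These genes were chosen by name, with earlier results of these data known. The cells came from male mice carrying the Blimp1-mVenus and Stella-ECFP transgenes, bred to C57BL/6, and only wild-type animals entered. The time-points were postnatal day (PND) 0 to 8, 10, 12, 14, 30 and 35 and adult, with PND30 cells divided by a DNA dye into 1N, 2N and 4N fractions, called gates here. Each time-point had 2 replicates, and after birth each replicate was the testis of 1 animal. The p-values below rest on the spread between replicates, estimated jointly over all time-points and gates of a fit. After birth no reporter was used to sort, and cells were picked by the look of a germ cell.

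In the testis, spermatogonia divide by mitosis, spermatocytes go through meiosis, and haploid round spermatids reshape into sperm. Mybl1 (A-MYB) is a MYB family activator of genes of the pachytene stage, including those of the piRNA pathway. Tcfl5 is a basic helix-loop-helix factor of spermatocytes. Rfx2 and Rfx3 bind the X-box of genes for cilia and flagella. Crem is a cAMP-responsive activator of spermatid genes such as those of the protamines, and Fhl5 (ACT) is its coactivator. Sox30 is an SRY-box factor needed for the round spermatid programme. Taf7l is the X-linked testis relative of Taf7, a subunit of the general factor TFIID. Pou5f2 (SPRM-1) is a POU domain factor made in the testis.

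A pool is the summed UMIs of the germ cells of 1 time-point and replicate, and at PND30 also of 1 gate. Of 7560 deposited cells, 7352 passed the cell filter, and 6569 of them had a germ cell marker list above every somatic list. The 34 pools held 25 to 447 cells and 11391996 to 187788707 UMIs. Ddx4, a helicase of germ cells, stood at 421 CPM (its UMIs per 1000000 UMIs of the pool) on the germ side and 67.2 on the somatic side of that gate. Ddx4 is itself on a germ cell list of the gate, so this difference is built in and is no independent check of it. Levels below are CPM of a pool, which combine the share of cells that express a gene and the level per cell, and these cannot be told apart in a pool. All 96 cell barcodes recur between libraries by design of the method, and 0 cells shared both UMI total and gene number with another.

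Some pools stood apart from the other replicate of their time-point. The cell names give a DNA content for each PND14 cell of replicate 1, with 209 germ cells named 2N and 186 named 4N, whereas of replicate 2 93 germ cells are named 2N and 274 carry no such name. In adult replicate 1, 3 of 318 germ cells were led by the spermatid marker list, against 185 of 447 in adult replicate 2, so that cells led by spermatid genes were nearly missing from the libraries labelled adult replicate 1. The summed level of the 6 spermatocyte markers was 1426 CPM in PND14 replicate 1 and 2291 CPM in PND14 replicate 2. Sertoli cell markers summed to 540.1 CPM in PND12 replicate 1, to 363 CPM in PND14 replicate 1 and to 221 CPM in adult replicate 1, and to at most 14.3 CPM in any PND30, PND35 or other adult pool. Leydig cell markers summed to 562 CPM in adult replicate 1 and 8.64 CPM in adult replicate 2, and mitochondrial UMIs made up 1.37% and 0.672%. The interstitial, endothelial, macrophage and blood lists summed to at most 427, 245, 309 and 287 CPM in a pool, each in a pool of PND0 to PND12. Whether somatic RNA has a part in any member's level was not tested. The 715 cells on the somatic side at PND0 to PND14 had Taf7l at 87.9 CPM, Crem at 27.6 CPM and Mybl1 at 15.1 CPM, and the other 5 members at 1.54 to 6.93 CPM. The germ cell genes Ddx4 and Dazl stood at 67.2 and 175 CPM in these same cells.

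The promoters of 6 members were read from RefSeq on GRCm38.p6, the 250 bases before the annotated start, and the 4 that hold a match to a searched motif are printed to show where it lies. Capitals mark matches on either strand to the cores of the factors in question, which were TAACNG for MYB, TGACG for CREM, GTTGCC for RFX and CACGTG for the E-box.
Tcfl5 (chr2:180642692-180642941, minus strand): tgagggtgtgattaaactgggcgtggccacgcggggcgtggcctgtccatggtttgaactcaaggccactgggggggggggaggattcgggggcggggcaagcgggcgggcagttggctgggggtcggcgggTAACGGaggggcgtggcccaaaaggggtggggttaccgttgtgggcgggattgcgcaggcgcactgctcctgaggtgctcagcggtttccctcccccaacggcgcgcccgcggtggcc
Rfx2 (chr17:56831009-56831258, minus strand): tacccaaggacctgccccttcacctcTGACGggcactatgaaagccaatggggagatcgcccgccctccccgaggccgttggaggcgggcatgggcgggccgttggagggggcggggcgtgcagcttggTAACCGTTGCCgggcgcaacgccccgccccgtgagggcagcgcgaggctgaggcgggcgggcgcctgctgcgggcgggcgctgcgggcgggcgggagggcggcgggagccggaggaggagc
Sox30 (chr11:45980060-45980309, plus strand): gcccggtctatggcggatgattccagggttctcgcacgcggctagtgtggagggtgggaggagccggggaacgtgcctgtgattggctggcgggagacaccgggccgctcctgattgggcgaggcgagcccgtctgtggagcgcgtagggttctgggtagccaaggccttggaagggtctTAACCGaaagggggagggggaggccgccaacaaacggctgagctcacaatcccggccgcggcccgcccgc
Taf7l (chrX:134476491-134476740, minus strand): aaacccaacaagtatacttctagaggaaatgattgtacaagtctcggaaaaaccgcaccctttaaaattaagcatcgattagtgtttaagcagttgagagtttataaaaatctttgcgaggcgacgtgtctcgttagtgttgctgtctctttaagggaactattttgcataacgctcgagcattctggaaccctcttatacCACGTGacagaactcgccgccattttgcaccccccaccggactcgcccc
The MYB core stood in the windows of Rfx2, Sox30 and Tcfl5, and it was found in 19.8% of all 32851 windows of that length. In Rfx2 the MYB core overlapped the X-box core by 1 base, and a CRE core (in 17.8% of all windows) lay further out. The X-box core was in 10.4% of all windows and the E-box of Taf7l in 6.02%. The full CRE TGACGTCA, the SOX core AACAAT and the octamer ATGCAAAT had no match in the 6 windows, and 1.55%, 9.42% and 1.601% of all windows hold them. The windows of Pou5f2 and Rfx3 held none of the searched motifs. Each match is a run of letters and was not tested for binding.

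The members followed different time courses. Crem, Rfx2, Sox30, Mybl1 and Tcfl5 were low at PND3 to PND7 and high in PND30 4N cells. Pou5f2 was low until PND14, apart from PND12 replicate 2, and high in PND30 4N cells. Taf7l ran the other way, and Rfx3 moved little. For each of the first 5, all 10 pools of PND3 to PND7 lay below both PND30 4N pools. The share of all genes with such a separation was not counted, so it describes these genes and does not set them apart.

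**Figure D1:**
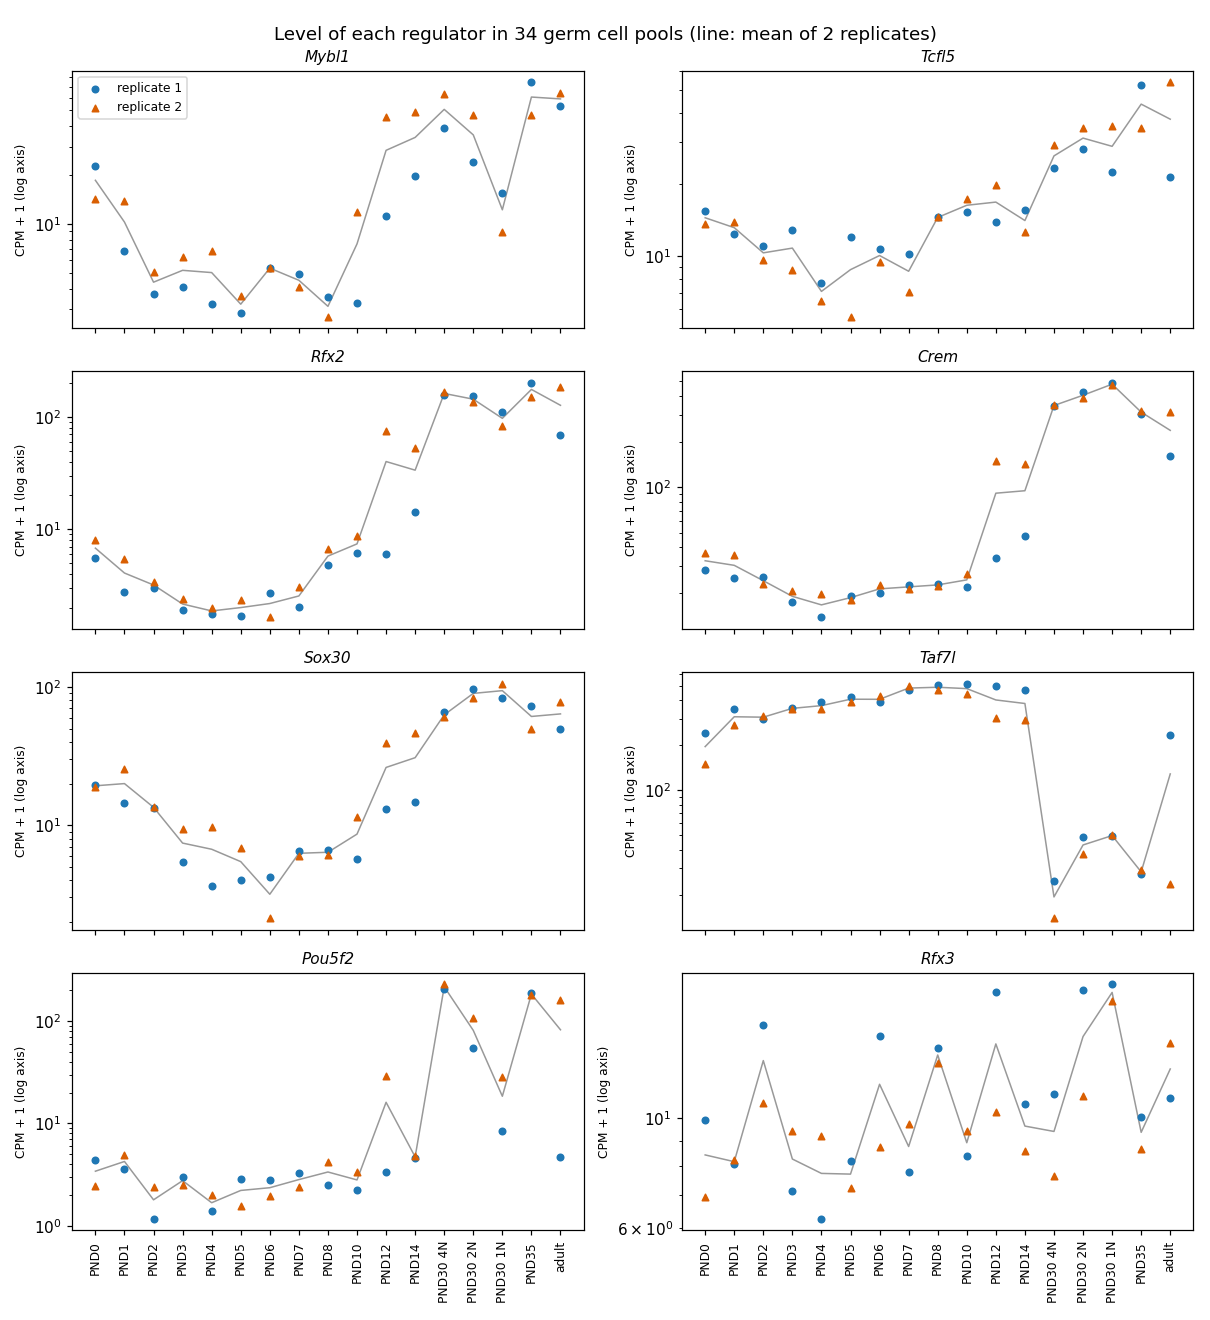
Level of each regulator (CPM + 1, log axis) in 34 germ cell pools by time-point and PND30 gate, with circles for replicate 1, triangles for replicate 2 and a line through the mean of both. Taf7l is high until PND14 and low at PND30, whereas Crem and Rfx2 rise after PND10, and the replicates lie far apart at PND12, PND14 and adult.

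Mybl1 (mm10 chr1:9667415-9700209, minus strand) was present at birth, low at PND3 to PND8 and higher again in the later pools. It stood at 21.9 and 13.3 CPM in the PND0 replicates and at 5.79 and 12.8 at PND1, and the 10 pools of PND3 to PND7 ranged from 1.84 to 5.85 CPM (median 3.51). At PND10 it was 2.28 and 10.8 CPM, and the 20 cells of replicate 2 led by the spermatocyte list had 65.4 CPM. At PND12 it was 10.2 and 44.7 CPM, at PND14 18.6 and 47.6, in PND30 4N cells 37.8 and 61.8, at PND35 73.4 and 45.6 and in the adult 52.4 and 63.4. Replicate 2 was the higher one at PND10, PND12 and PND14. At PND30 it was lower in the other gates, with 23.2 and 45.6 CPM in 2N and 14.6 and 7.91 in 1N cells, and the 4N and 1N pools did not overlap. The highest group was PND35, and its pools overlapped those of the adult and of PND30 4N.

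Tcfl5 (mm10 chr2:180621956-180642708, minus strand) changed over a smaller range. It was 14.4 and 12.6 CPM at PND0, 4.56 to 11.8 CPM (median 8.08) over PND3 to PND7, 14.6 and 11.6 CPM at PND14 and 22.3 and 28.3 CPM in PND30 4N cells. At PND35 it reached 51.5 and 33.4 CPM and in the adult 20.5 and 52.6 CPM, where replicate 1 was the lower one. The 3 PND30 gates overlapped. Its last 1000 bases overlap Col9a3 on the opposite strand, and the strand setting of the counting is not given in the sources used here, so reads of Col9a3 there could not be told apart.

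Crem (mm10 chr18:3266048-3337748, minus strand) was lowest at PND4 by the mean of both replicates and highest in the 1N cells of PND30. It was 27.4 and 35.9 CPM at PND0 and 12.8 to 21.7 CPM (median 18.8) over PND3 to PND7. At PND12 the replicates had 33.1 and 148 CPM and at PND14 46.8 and 140.8 CPM. The PND30 gates had 345 and 346 CPM (4N), 422 and 386 CPM (2N) and 487 and 471 CPM (1N), and their pools did not overlap. PND35 lay at 306 and 319 CPM and the adult at 159 and 314 CPM. The table counts Crem as a single gene, so that its activator and repressor isoforms, such as ICER, are summed.

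Fhl5, the coactivator of CREM, was nearly absent before PND30. It had 0 and 5.49 CPM at PND12 and 0 and 2.35 CPM at PND14, then 105.1 and 63.01 CPM in PND30 4N and 280.3 and 553 CPM in PND30 1N cells. Crem was thus at 140.8 CPM in PND14 replicate 2 while Fhl5 was at 2.35 CPM. The adult replicates had 9.79 and 98.5 CPM of Fhl5, and the low one was again replicate 1.

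**Figure D2:**
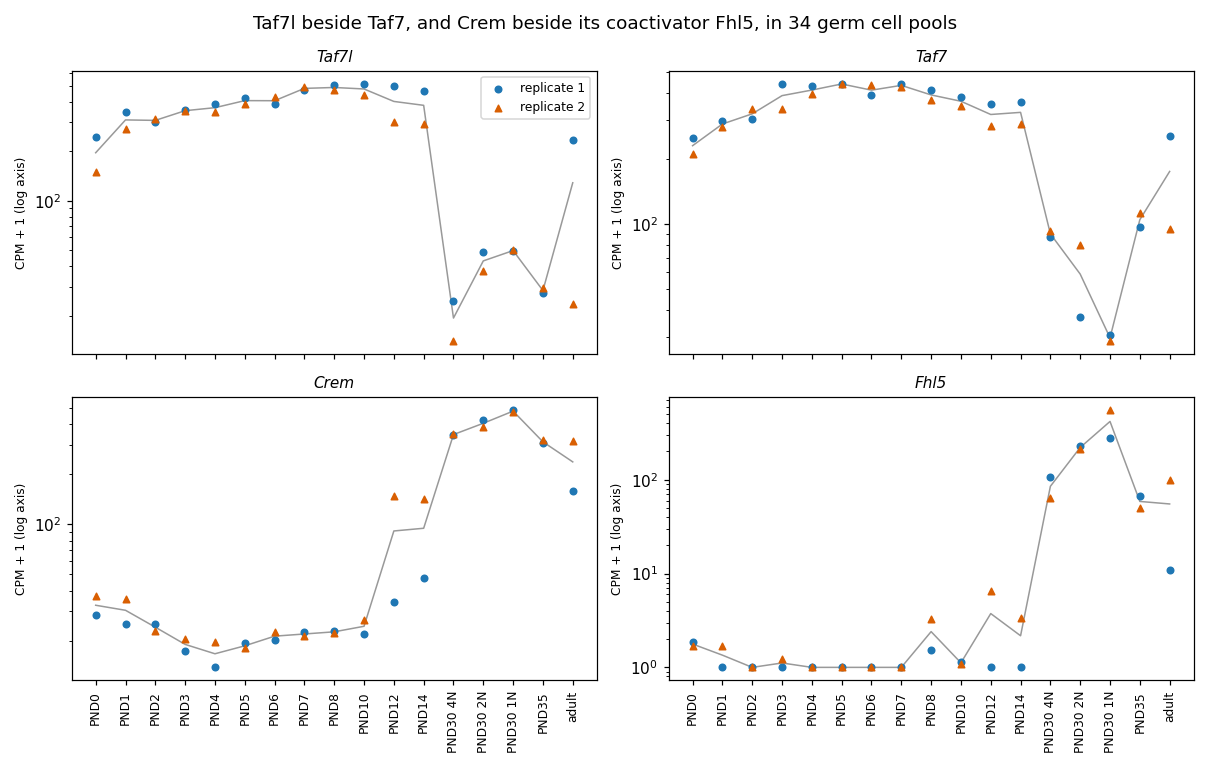
Taf7l beside Taf7 and Crem beside Fhl5 (CPM + 1, log axis) in 34 germ cell pools, with circles for replicate 1, triangles for replicate 2 and a line through the mean. Taf7 and Taf7l are both high until PND14 and fall at PND30, and Fhl5 is near 0 until PND10, when Crem is already above 10 CPM.

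Rfx2 (mm10 chr17:56775897-56831013, minus strand) had the largest rise of the 8 at the start of meiosis. It was 4.53 and 7.06 CPM at PND0, 0.653 to 2.06 CPM (median 1.02) over PND3 to PND7, 3.82 and 5.74 CPM at PND8 and 5.16 and 7.68 CPM at PND10. The PND12 replicates stood at 4.99 and 73.03 CPM and the PND14 replicates at 13.3 and 51.7 CPM. In PND30 4N cells it was 155 and 165 CPM, in 2N 151 and 133.3 and in 1N 109.9 and 81.8, and none of these pools overlapped the pools of another gate. PND35 had 198 and 149.8 CPM.

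Rfx3 (mm10 chr19:27761721-28011166, minus strand), of the same family, did not share this course. It was 8.93 and 5.92 CPM at PND0, 5.27 to 13.7 CPM (median 7.46) over PND3 to PND7, 9.67 and 7.60 CPM at PND14, 10.2 and 6.63 CPM in PND30 4N and 17.6 and 16.2 CPM in PND30 1N cells. The 1N pools were above the 4N pools, and most other time-points overlapped. Rfx4, another relative, was at 3.20 and 2.62 CPM at PND7, 6.497 and 48.02 CPM at PND14 and 112.5 and 96.8 CPM in PND30 4N cells.

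Sox30 (mm10 chr11:45980310-46017994, plus strand) was already present at birth, at 18.7 and 17.9 CPM at PND0 and 13.5 and 24.5 CPM at PND1. The 10 pools of PND3 to PND7 had 1.14 to 8.75 CPM (median 4.71), all below the 6 pools of PND0 to PND2. At PND10 it was 4.69 and 10.6 CPM, with replicate 2 above all pools of PND3 to PND7, and the 20 cells of that pool led by the spermatocyte list had 93.3 CPM. PND12 had 11.99 and 38.3 CPM and PND14 13.8 and 45.8 CPM. At PND30 the 4N pools had 64.4 and 59.1 CPM, the 2N pools 95.5 and 81.9 CPM and the 1N pools 81.5 and 104.3 CPM, so that 1N and 2N overlapped and both lay above 4N.

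Taf7l (mm10 chrX:134460118-134476490, minus strand) was the only member on the X chromosome. It was also the only one whose mean over the pools of a time-point was highest at a spermatogonial age. It rose from 242 and 148 CPM at PND0 to 348 to 494 CPM (median 388) over PND3 to PND7 and 515 and 440.4 CPM at PND10. PND12 had 501 and 301 CPM and PND14 466.4 and 293 CPM, with replicate 2 the lower. In PND30 4N cells it was 23.7 and 13.02 CPM, in 2N 47.7 and 36.5 and in 1N 48.2 and 49.3. The 1N pools lay above both 2N and 4N pools.

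Taf7, its autosomal relative, was 440.4 and 429 CPM at PND7, 364 and 288 CPM at PND14, 86.2 and 91.8 CPM in PND30 4N and 29.9 and 27.8 CPM in PND30 1N cells. Both TFIID subunits were therefore lower at PND30 than before, but Taf7 was lower in 1N than in 4N cells and Taf7l higher. In the adult, Taf7l was 233 and 22.7 CPM and Taf7 253 and 93.98 CPM, and for both genes replicate 1 was the higher.

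Pou5f2 (mm10 chr13:78024902-78026295, plus strand) was low in most groups and high in PND30 4N, PND35 and adult replicate 2. It was 0.381 to 2.24 CPM (median 1.47) over PND3 to PND7, 3.62 and 3.80 CPM at PND14, 203 and 227 CPM in PND30 4N cells, 53.7 and 106.2 CPM in 2N and 7.38 and 27.4 CPM in 1N cells. PND12 replicate 2 had 27.8 CPM against 2.34 in replicate 1, and in its 3 libraries the level ran from 0.78 to 69.05 CPM. At PND35 it was 186 and 178 CPM and in the adult 3.66 and 159 CPM. The gene lies inside Fam172a on the same strand, and Fam172a itself was 38.6 and 34.7 CPM at PND14, 20.97 and 21.1 CPM in PND30 4N and 10.6 and 8.39 CPM in PND30 1N cells. Only the spans of the 2 genes were compared. Whether their exons overlap, and so whether any reads are shared, was not checked.

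The pools were compared with edgeR's quasi-likelihood test over 26277 genes in 6 contrasts, which share groups, and values are log2 fold changes ± SE with Benjamini-Hochberg adjusted p, called at 0.05. Scaling by library size in place of TMM factors moved the median of all genes from -0.40 to -0.78 in the first contrast, from 0.00 to -0.25 in PND30 4N against PND12 to PND14 and from 0.09 to 0.26 in adult against PND35, so that changes are relative to these. PND8 and PND10 stayed in the fit but entered none of the 6 contrasts. That choice was made with earlier results of these data known, in which PND8 cells stood apart. The first contrast sets young spermatogonia against the gonocytes of birth. From PND0 to PND2 to PND3 to PND7, Sox30 fell (log2 fold change -1.48 ± 0.33, adjusted p = 0.00133), Rfx2 fell (log2 fold change -1.20 ± 0.43, adjusted p = 0.0277) and Taf7l rose (log2 fold change 0.98 ± 0.27, adjusted p = 0.00707), a rise that was not called when scaled by library size (log2 fold change 0.60 ± 0.28, adjusted p = 0.101). So 3 of 8 members changed, where 42.8% of all genes did, of which 2 were lower, where 26.5% of all genes were, and 1 was higher, where 16.3% were. Mybl1 did not pass (log2 fold change -0.83 ± 0.36, adjusted p = 0.0696), though it did when scaled by library size (log2 fold change -1.21 ± 0.36, adjusted p = 0.0103), and with that one included it passed in 5 of 7 settings other than leaving out a pool (log2 fold changes -1.21 to -0.85). Rfx2 was not called in 5 of the 16 fits that left out 1 pool, and it passed in 5 of 7 other settings (log2 fold changes -1.58 to -0.87). It was not called with PND8 added to PND3 to PND7 (log2 fold change -0.87 ± 0.41, adjusted p = 0.0907). Without the germ cell gate it was not called either (log2 fold change -0.98 ± 0.44, adjusted p = 0.0872). Tcfl5, Crem, Pou5f2 and Rfx3 had log2 fold changes between -0.21 and 0.23 and did not pass.

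Of the relatives and partners, Taf7 rose (log2 fold change 0.98 ± 0.15, adjusted p = 6.62e-05) and Mybl2, the B-MYB of dividing cells, rose (log2 fold change 1.27 ± 0.25, adjusted p = 5.75e-04). Fam172a, whose span holds Pou5f2, rose (log2 fold change 1.08 ± 0.16, adjusted p = 3.55e-05). Brdt, a bromodomain protein of spermatocytes and spermatids, fell (log2 fold change -0.99 ± 0.21, adjusted p = 8.47e-04). Stra8, which is needed to start meiosis, rose (log2 fold change 2.39 ± 0.66, adjusted p = 0.00624), and Ovol1 fell (log2 fold change -1.63 ± 0.34, adjusted p = 8.59e-04). Among 14 other meiotic and spermatid regulators tested, 3 rose and 5 fell, against 1.0 and 5.0 with library size scaling. Of 12 cofactors, 3 rose and 2 fell, but with library size scaling 0 rose and 4 fell. Of 15 family relatives 5 rose and 4 fell, against 3 and 4 with library size scaling. Of 8 CREM targets 0 rose and 3 fell, against 0.0 and 5.0 with library size scaling. Of 5 A-MYB targets 1 rose and 1 fell, against 0.0 and 3.0 with library size scaling. The shares of all genes that rose or fell with library size scaling are not given here. The list counts under that scaling therefore have no background and do not set a list apart. The median log2 fold change of all genes was -0.78 with that scaling and -0.40 with TMM factors.

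At the ages when meiosis begins, PND12 to PND14 against PND3 to PND7, 6 of 8 members rose, where 19% of all genes rose and 25.2% changed. Rfx2 had the largest change (log2 fold change 5.07 ± 0.47, adjusted p = 2.37e-07), followed by Mybl1 (log2 fold change 3.17 ± 0.39, adjusted p = 4.58e-06), Sox30 (log2 fold change 2.71 ± 0.36, adjusted p = 9.43e-06), Pou5f2 (log2 fold change 2.60 ± 0.62, adjusted p = 0.00371) and Crem (log2 fold change 2.41 ± 0.29, adjusted p = 3.55e-06). Tcfl5 rose less (log2 fold change 0.87 ± 0.27, adjusted p = 0.0208). Taf7l (log2 fold change -0.03 ± 0.30, adjusted p = 1) and Rfx3 (log2 fold change 0.48 ± 0.25, adjusted p = 0.172) did not pass, and 0 members fell, where 6.2% of all genes did. Mybl1, Rfx2, Crem and Sox30 were called in each of the 14 fits that left out 1 pool. Pou5f2 rested on PND12 replicate 2, without which it did not pass (log2 fold change 1.20 ± 0.67, adjusted p = 0.324), and Tcfl5 did not pass without PND12 replicate 2 (log2 fold change 0.69 ± 0.31, adjusted p = 0.198), PND14 replicate 1 (log2 fold change 0.84 ± 0.32, adjusted p = 0.0626) or PND14 replicate 2 (log2 fold change 0.90 ± 0.32, adjusted p = 0.0777). In PND12 and PND14 replicate 1 these 6 members were lower than in replicate 2, except Tcfl5 at PND14, and the Sertoli markers were higher. At PND14 the cells named 4N were all in replicate 1, and the part of these differences between replicates was not tested. Whole-table calls fell to 2599 without PND12 replicate 2 and to 3007 without PND14 replicate 2, from 6626.

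Genes known as A-MYB targets rose in 3 of 5 cases, Piwil1, a PIWI protein of pachytene cells (log2 fold change 3.50 ± 0.43, adjusted p = 4.55e-06), Tdrd6, a chromatoid body protein (log2 fold change 4.79 ± 0.72, adjusted p = 4.00e-05), and Ccna1, the meiotic cyclin (log2 fold change 1.66 ± 0.55, adjusted p = 0.0282). The median log2 fold change of the 5 was 1.66, beside 0.11 over all genes. Of 8 known CREM targets 5 rose. These genes were still low, with Prm1 at 0.265 and 40.2 CPM at PND12 and 0.375 and 38.7 CPM at PND14, and Prm1 and Tnp1 also served as spermatid markers of the gate. Of 14 other regulators 6 rose and 1 fell, with Zfp541 (log2 fold change 3.65 ± 0.37, adjusted p = 6.80e-07) and Hsf5 (log2 fold change 3.51 ± 0.44, adjusted p = 5.74e-06) among those that rose.

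Within the 15 family relatives, 3 rose and 1 fell. Rfx4 rose (log2 fold change 4.17 ± 0.56, adjusted p = 1.12e-05), Sox6 rose (log2 fold change 3.15 ± 0.42, adjusted p = 1.01e-05), and Pou5f1, the OCT4 of pluripotent and early germ cells, fell (log2 fold change -2.43 ± 0.38, adjusted p = 6.48e-05). Of 12 cofactors 5 rose and 0 fell, including Gtf2a1l, a testis form of TFIIA (log2 fold change 5.06 ± 0.70, adjusted p = 1.58e-05), and Brdt (log2 fold change 1.77 ± 0.23, adjusted p = 7.01e-06). Taf7 (log2 fold change -0.36 ± 0.17, adjusted p = 0.136) and Mybl2 (log2 fold change -0.56 ± 0.28, adjusted p = 0.158) did not pass. Fam172a rose (log2 fold change 0.52 ± 0.17, adjusted p = 0.0278), in the same direction as Pou5f2.

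**Figure D3:**
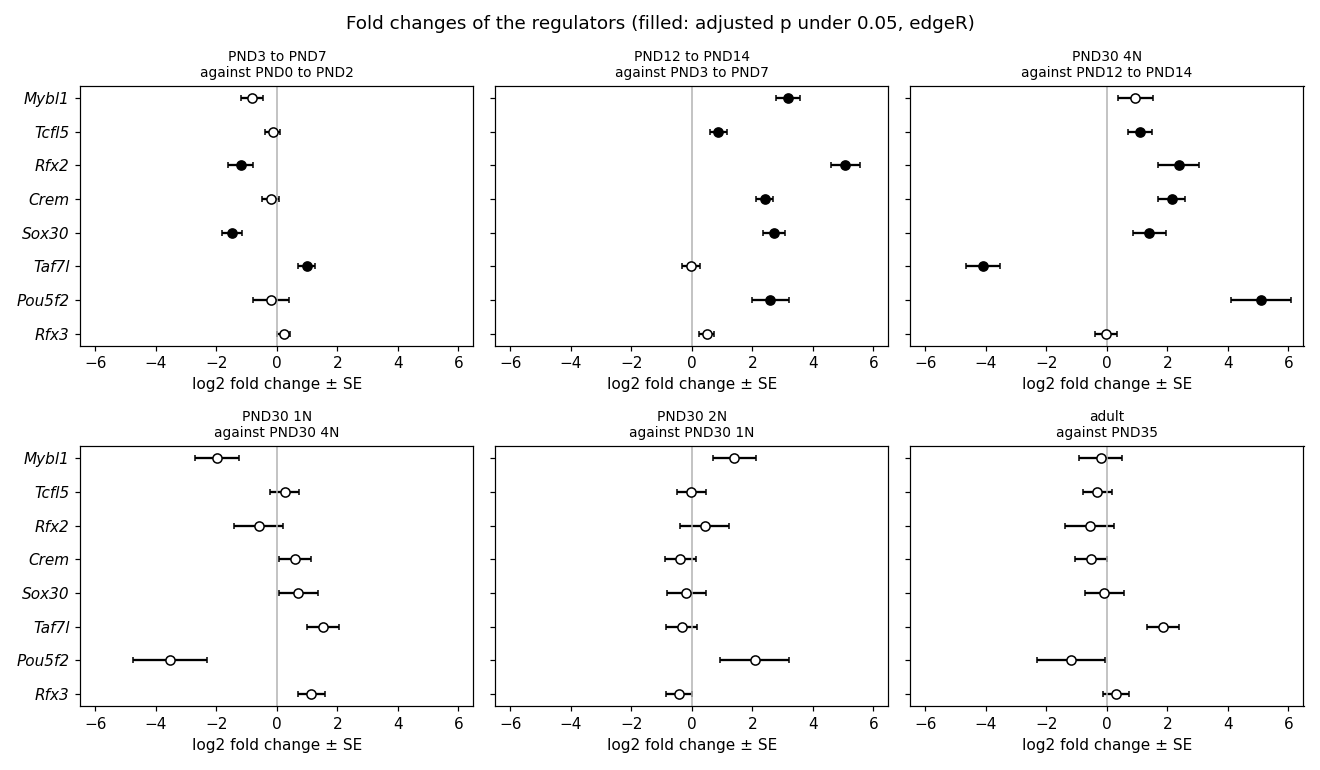
Log2 fold changes ± SE of the 8 regulators in the 6 contrasts, with filled points for an adjusted p under 0.05 (edgeR) and open points for the rest. Filled points are 3 in PND3 to PND7 against PND0 to PND2, 6 in each of the next 2 contrasts and 0 in the last 3.

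From PND12 to PND14 to the 4N gate of PND30, 5 members rose and 1 fell, where 28.2% of all genes rose, 28.2% fell and 56.4% changed. Pou5f2 rose most (log2 fold change 5.10 ± 0.98, adjusted p = 2.74e-04), then Rfx2 (log2 fold change 2.38 ± 0.68, adjusted p = 0.00538) and Crem (log2 fold change 2.14 ± 0.44, adjusted p = 4.39e-04). Taf7l fell (log2 fold change -4.09 ± 0.56, adjusted p = 1.65e-05). These 4 were called in each of the 6 fits that left out 1 pool. Cells led by the spermatid list made up 48 of its 191 cells in replicate 1 and 11 of 95 in replicate 2. The spermatid markers summed to 922 and 694 CPM there and to 17.1 to 126.9 CPM in the 4 pools of PND12 to PND14, and their part in these changes was not tested. Sox30 (log2 fold change 1.40 ± 0.54, adjusted p = 0.0308) and Tcfl5 (log2 fold change 1.09 ± 0.40, adjusted p = 0.0242) also rose, but neither passed when scaled by library size (log2 fold change 1.17 ± 0.53, adjusted p = 0.065 for Sox30 and log2 fold change 0.81 ± 0.38, adjusted p = 0.0745 for Tcfl5). Of the 6 fits that left out 1 pool, Sox30 passed in 2 and Tcfl5 in 3. It was PND12 replicate 1, PND14 replicate 1 and either 4N pool for Sox30, and PND12 replicate 1, PND14 replicate 1 and 4N replicate 2 for Tcfl5, whose absence ended the call. In cells led by the general germ cell list alone, Sox30 was 37.3 and 44.1 CPM in the 4N gate, beside 38.03 CPM in PND12 replicate 2 and 40.997 CPM in PND14 replicate 2. In replicate 1 these cells had 8.36 CPM at PND12 and 8.82 CPM at PND14. Mybl1 did not pass (log2 fold change 0.94 ± 0.59, adjusted p = 0.18), and it did without PND12 replicate 2 (log2 fold change 1.70 ± 0.60, adjusted p = 0.021) or PND14 replicate 2 (log2 fold change 1.54 ± 0.64, adjusted p = 0.0471).

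In the same contrast 8 of 8 CREM targets rose, with Akap4, a scaffold of the sperm tail (log2 fold change 4.95 ± 0.77, adjusted p = 4.22e-05), and Odf1, of the outer dense fibres (log2 fold change 4.71 ± 0.80, adjusted p = 8.62e-05), among them. With library size scaling 7 rose. Prm1 and Tnp1 of this list are themselves spermatid markers, and the spermatid marker sum was higher in the 4N pools. The list's median was 3.76 beside 0.00 over all genes. Of the A-MYB targets 4 of 5 rose, led by Ccna1 (log2 fold change 5.28 ± 0.86, adjusted p = 6.42e-05), and Mov10l1, a helicase of the piRNA pathway, fell (log2 fold change -2.10 ± 0.34, adjusted p = 5.53e-05). With library size scaling 3 of these targets rose and 1 fell. Mael, 1 of the 4 that rose (log2 fold change 0.69 ± 0.18, adjusted p = 0.00324), is itself on the general germ cell list of the gate. Of 15 relatives 9 fell and 3 rose. Taf7 fell (log2 fold change -1.57 ± 0.27, adjusted p = 9.59e-05), Mybl2 fell (log2 fold change -2.24 ± 0.45, adjusted p = 4.00e-04), and Tcf3, a partner of basic helix-loop-helix factors, fell (log2 fold change -5.25 ± 0.76, adjusted p = 2.41e-05). Fam172a did not pass (log2 fold change -0.50 ± 0.26, adjusted p = 0.107).

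All 12 cofactors changed, 6 up and 6 down, and with library size scaling 5 rose and 6 fell. Taf1, the X-linked largest subunit of TFIID, fell (log2 fold change -7.63 ± 0.98, adjusted p = 1.37e-05), and Gtf2a1l rose (log2 fold change 3.04 ± 1.003, adjusted p = 0.0139). Stra8 (log2 fold change -8.66 ± 1.58, adjusted p = 1.71e-04), Sohlh1 (log2 fold change -6.13 ± 0.87, adjusted p = 1.97e-05) and Sohlh2 (log2 fold change -5.39 ± 0.73, adjusted p = 1.64e-05), regulators of differentiating spermatogonia and meiotic entry, fell among the 14 other regulators, of which 6 rose and 6 fell.

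The gates of PND30 were set against each other to follow the members from the 4N to the 1N gate. In the fit over all pools 0 of 8 members passed, beside 14.8% of all genes (4.84% higher and 9.93% lower in 1N), and 4 members had an unadjusted p under 0.05, as did 27% of all genes. The gates of a replicate came from the same animal, and the fit over all pools treated them as independent. In a fit of the PND30 pools alone with that animal as a block 5 members passed, beside 39.4% of all genes (22.4% higher and 17% lower). The same pools without the block gave 4 of these 5, all but Rfx3. Both fits hold only 2 pools per gate and have fewer residual degrees of freedom than the fit over all pools. Neither was repeated with a pool left out. Pou5f2 was lower in 1N cells (log2 fold change -3.75 ± 0.44, adjusted p = 8.40e-07), as was Mybl1 (log2 fold change -1.92 ± 0.44, adjusted p = 0.00116). Taf7l (log2 fold change 1.63 ± 0.40, adjusted p = 0.00225), Rfx3 (log2 fold change 1.21 ± 0.45, adjusted p = 0.0356) and Crem (log2 fold change 0.62 ± 0.19, adjusted p = 0.0119) were higher. The fit over all pools gave log2 fold changes of -3.54 ± 1.22 for Pou5f2, -1.98 ± 0.73 for Mybl1, 1.53 ± 0.53 for Taf7l, 1.14 ± 0.44 for Rfx3 and 0.60 ± 0.53 for Crem, with larger SE for all but Rfx3. DESeq2 called 4 members (Mybl1, Taf7l, Pou5f2 and Rfx3), beside 27.4% of all genes.

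Rfx2 (log2 fold change -0.61 ± 0.33, adjusted p = 0.139), Sox30 (log2 fold change 0.75 ± 0.36, adjusted p = 0.103) and Tcfl5 (log2 fold change 0.27 ± 0.39, adjusted p = 0.595) did not pass with the block. Taf7 fell from 4N to 1N in the fit over all pools (log2 fold change -1.49 ± 0.29, adjusted p = 0.00159), the reverse of Taf7l, and Fam172a fell (log2 fold change -1.001 ± 0.30, adjusted p = 0.0257). Of 5 A-MYB targets Piwil1 (log2 fold change -2.88 ± 0.83, adjusted p = 0.0218) and Mov10l1 (log2 fold change -1.50 ± 0.36, adjusted p = 0.00678) fell, and of the CREM targets 1 of 8 passed, Tnp1, a transition protein (log2 fold change 2.55 ± 0.71, adjusted p = 0.0178). Egr4, a zinc finger factor of spermatocytes, fell (log2 fold change -3.55 ± 0.54, adjusted p = 1.80e-04). The median of the CREM targets was 2.45, beside 0.00 over all genes.

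Between 2N and 1N cells 0 of 8 members passed in the fit over all pools, beside 0.837% of all genes (0.799% higher and 0.0381% lower in 2N), and 0 had an unadjusted p under 0.05, where 10.8% of all genes did. Pou5f2 passed with the block (log2 fold change 2.13 ± 0.40, adjusted p = 0.0124), beside 0.998% of all genes, and DESeq2 called 0 members, beside 3.37% of all genes. The 2N gate held mostly cells led by the spermatid list, 168 of 186 in replicate 1 and 52 of 85 in replicate 2, and the 4N gate held 48 of 191 and 11 of 95. A further 190 cells of PND30 replicate 2 carry no gate and entered no test. In them Crem was 328 CPM, Pou5f2 148 CPM and Taf7l 29.3 CPM. Pou5f2 and Taf7l lay between the 4N and 1N pools of that replicate, and Crem lay below both.

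Because gates mixed stages, the cells of PND30, PND35 and adult were also split by their leading germ cell marker list. The split uses expression, so the levels are a description with no test, and 599 of 3855 cells from PND10 on lay near the border between lists. In PND30 4N, Taf7l was 2.72 and 4.53 CPM in cells led by the general germ cell list (Ddx4, Dazl and others) and 69.7 and 59.5 CPM in cells led by the spermatid list. Rfx3 was 3.94 and 3.51 CPM in the former and 23.8 and 23.7 CPM in the latter, and Sox30 was 37.3 and 44.1 against 124.03 and 140.9 CPM. All 3 were thus lower in the first than in the second kind of cell within the same gate.

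Pou5f2 went the other way, at 262 and 245 CPM in cells led by the general list and 73.1 and 128.8 CPM in those led by the spermatid list, and Mybl1 went from 44.5 and 66.3 to 22.99 and 37.3 CPM. Crem was high in both, at 322 and 343 and at 397 and 363 CPM. Taf7l kept its order at PND35, where it was 10.6 and 16.9 CPM under the general list and 51.7 and 76.2 CPM under the spermatid list, and in adult replicate 2, with 8.07 and 42.5 CPM. Adult replicate 1 stood apart, and its 269 cells under the general list had 224 CPM of Taf7l, above each value under the spermatid list. The cells led by the spermatocyte list (Sycp1, Sycp3 and others) differed from both. In PND35 replicate 1, 28 such cells had Taf7l at 246 CPM, Rfx2 at 89.3 and Pou5f2 at 56.3 CPM.

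**Figure D4:**
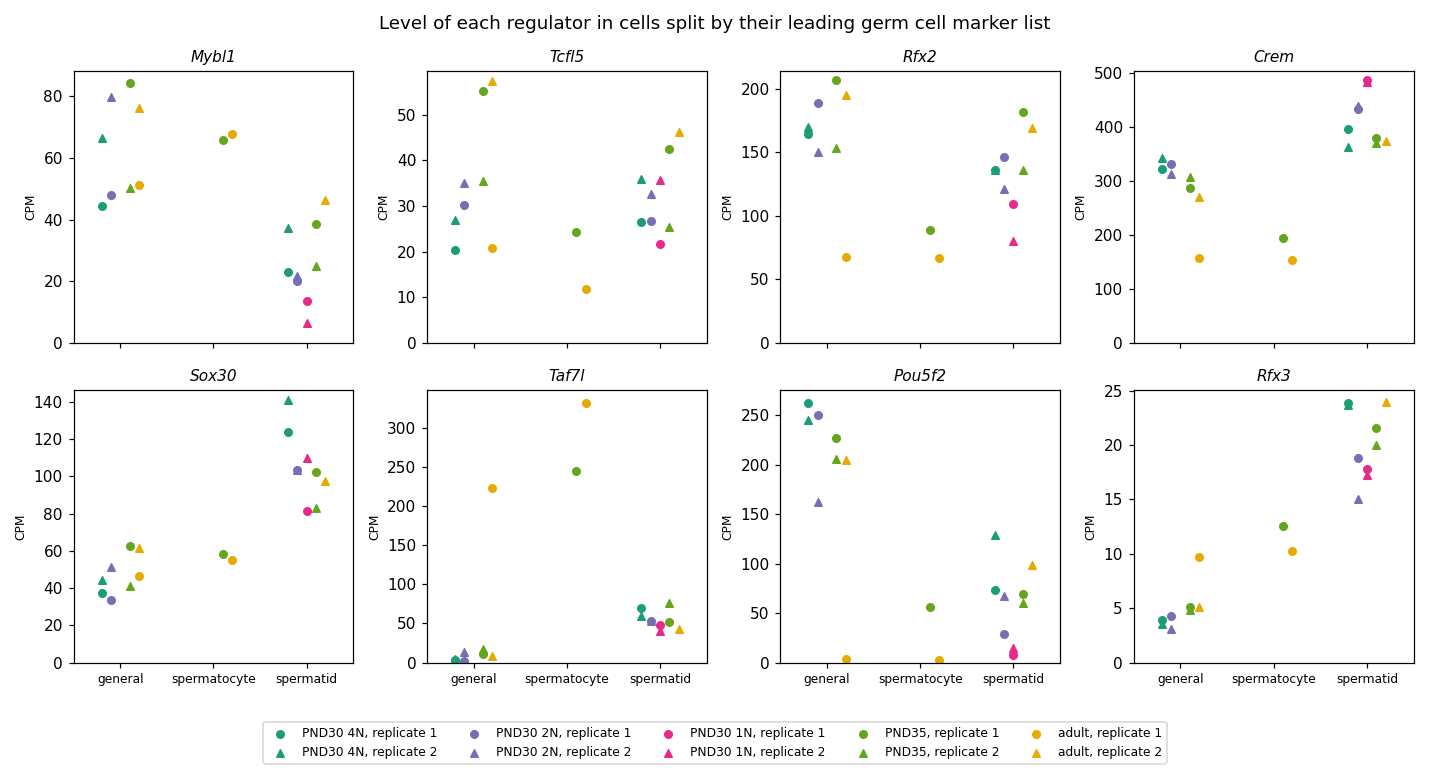
Level of each regulator (CPM) in cells of PND30, PND35 and adult split by their leading germ cell marker list, with a colour for each time-point or gate, circles for replicate 1 and triangles for replicate 2 (sums over at least 10 cells). Rfx3 and Sox30 are higher under the spermatid list than under the general list, Pou5f2 is lower except that the general-list cells of adult replicate 1 lie at 3.83 CPM, and Taf7l is highest under the spermatocyte list, with the general-list cells of adult replicate 1 at 224 CPM.

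The last contrast set the adult against PND35, whose cell names give no DNA content, and whether these cells were sorted by it is not given in the sources used here. In the fit over all pools 0 of 8 members passed, and 0% of all genes did. At an unadjusted p under 0.05 there were 3906 genes (14.9%) and 1 member, and DESeq2 called 1980 genes (9.58%) and Taf7l (log2 fold change 1.73 ± 0.54, adjusted p = 0.0215). Without adult replicate 2, and so with replicate 1 as the only adult pool and its spread assumed like that of the other groups, 3 members passed, beside 21.4% of all genes. They were Pou5f2 (log2 fold change -6.04 ± 1.42, adjusted p = 0.00374), Taf7l (log2 fold change 2.67 ± 0.35, adjusted p = 1.56e-05) and Tcfl5 (log2 fold change -1.45 ± 0.51, adjusted p = 0.0455). Without adult replicate 1 0 members passed, with the largest fold change in Rfx3 (log2 fold change 0.66 ± 0.49, adjusted p = 1), and 0 genes passed.

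The adult replicates lay far apart in several members. Pou5f2 was 3.66 and 159 CPM, Taf7l 233 and 22.7 CPM, Rfx2 67.4 and 183 CPM, Crem 159 and 314 CPM and Tcfl5 20.5 and 52.6 CPM. The difference ran through all libraries. In the 4 libraries of replicate 1 Taf7l was 202 to 256 CPM and in the 5 of replicate 2 16.3 to 29.2 CPM, and Pou5f2 was 2.41 to 6.22 against 131.01 to 188 CPM. Mybl1 (52.4 and 63.4 CPM) and Rfx3 (9.95 and 13.2 CPM) lay closer together. The makeup of the cells picked and the animal cannot be told apart here.

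The share of cells with a UMI was counted beside the levels. With each cell thinned to 50000 UMIs, Crem had a UMI in 41.6% of PND7 cells and 100% of PND30 1N cells, and in 31.5% of the somatic-marker cells (unthinned 67.5%, 100% and 42.2%). Pou5f2 was found in 6.17% of PND7 cells, near the 4.93% of somatic-marker cells, and in 92.8% of PND30 4N and 23.9% of 1N cells, which was 16.2% and 40.2% in the 1N replicates (unthinned 14.1%, 6.57%, 99.3% and 46.5%). Rfx2 was in 5.19% of PND7 cells, 54.8% of PND12 cells (13.6% and 68.3% in the replicates) and 100% of PND30 4N cells, with 7.31% in somatic-marker cells (unthinned 15.3%, 64.7%, 100% and 11.2%). After thinning, the share at PND7 was below that of the somatic-marker cells for Rfx2 and for Mybl1 (10.4% against 21.9%, unthinned 37.2% against 27.97%). The somatic-marker cells were taken over PND0 to PND14 and not at PND7 alone. They also held the germ cell genes Ddx4 and Dazl at 67.2 and 175 CPM, so their share is no floor free of germ cell RNA.

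Median depth was 315745 UMIs in PND7 cells, 364400 in PND30 4N cells, 235781 in PND30 1N cells and 117523 in somatic-marker cells. The members' UMIs were spread unevenly at the onset. In PND14 replicate 1 the 10% of cells richest in Sox30 held 87.8% of its UMIs, the 10% richest in Mybl1 79.1% and the 10% richest in Taf7l 17.8%. In PND14 replicate 2 these shares were 45.6%, 47.8% and 29.2%.

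The genes whose course was most like that of each member were taken from 15934 genes over the 17 time-points and gates, by Pearson's r of mean log2(CPM + 1). They are a description, since the points share libraries and cell makeup. For Rfx2 they were Ccdc151 (r = 0.995), Catsperg2 (r = 0.994) and Mroh8 (r = 0.994), of which Ccdc151 serves the docking of dynein arms and Catsperg2 belongs to the sperm calcium channel. For Crem they were Spesp1 (r = 0.996), Arfgap3 (r = 0.994) and 4933421I07Rik (r = 0.994), and for Sox30 Cfap69 (r = 0.989), Rgs22 (r = 0.988) and Lrrc34 (r = 0.985). For Pou5f2 they were 1700123J17Rik (r = 0.991), AC157610.1 (r = 0.989) and Ralgps1 (r = 0.988), and for Mybl1 4930509G22Rik (r = 0.974), Rp1 (r = 0.974) and Pmpcb (r = 0.971).

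For Taf7l they were Gm15128 (r = 0.996), Gm15107 (r = 0.996) and Uba1y (r = 0.996), of which Uba1y is Y-linked. Tcfl5 had Ccdc42os (r = 0.965), Grin2d (r = 0.961) and Entpd1 (r = 0.956), and Rfx3 had the lowest values of the 8, Vamp1 (r = 0.821), App (r = 0.817) and Alg12 (r = 0.806). Among the members, Rfx2 and Crem were the closest pair (r = 0.974), and Taf7l and Pou5f2 the most opposed (r = -0.887).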

How the data were processed

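Cells were counted by the authors from modified STRT-seq libraries, a 3′-end method with molecular identifiers, and the deposited values are raw UMI counts per gene and cell on mm10. The submitters' processing notes name CASAVA 1.8, STAR, featureCounts of Subread and UMI-tools. Conditions were read from the deposited table of cells and from the cell names, since the sample labels give none. Cells with more than 2000 genes and 10000 to 1000000 UMIs were kept, and those whose leading marker list was a germ cell list were summed into 34 pools, each with a depth of 11391996 to 187788707 UMIs. No doublet caller was run.

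The members and gene lists were chosen with earlier results of these data known. Genes were tested with edgeR 4.0.16 in R 4.3.3 (TMM, default filter on low counts, quasi-likelihood test, 17 residual degrees of freedom, Benjamini-Hochberg over 26277 genes, threshold 0.05), after the code was tested on simulated data, and DESeq2 1.42.0 was an alternative. SE is the log2 fold change over the root of F. At PND30 the same animal gave all gates, and deviations from the gate means correlated at 0.312 (4N and 2N), 0.111 (4N and 1N) and 0.206 (2N and 1N) within a replicate, so a replicate block was fitted. Named genes were the members, up to 4 called genes of each list with the largest change per contrast, 4 fixed partners (Taf7, Fhl5, Mybl2 and Fam172a), and 3 genes of most similar course per member among those reaching 10 CPM. Meiosin, 1 of 15 other regulators, is not a row name of the table. The shallowest pools limit the precision of low levels, and counting intervals were not computed. Python 3.11.15 with numpy 2.4.6, pandas 2.3.3 and scipy 1.17.1 handled the tables.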

Additional observations from a re-analysis of the deposited data

Results flagged for a closer look

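Among 24 sets of pools checked, 2 members had 1 pool far from the others of its window by Dixon's 95% criterion on CPM. Draws from 1 normal population would be flagged by chance in about 1 of 20 sets. The windows join several ages and replicates of unlike makeup, so that rate need not hold here. Pou5f2 in PND12 replicate 2 stood at 27.8 CPM, while the other 3 pools of PND12 and PND14 lay at 2.34 to 3.80 CPM. Of its UMIs in that pool 60.7% came from the 10% of cells richest in it, and the 3 libraries of the pool ran from 0.78 to 69.05 CPM. Rfx3 in PND6 replicate 1 stood at 13.7 CPM, above the other 9 pools of PND3 to PND7. The part of cell makeup in either value was not tested.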

How the results depend on the processing

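No change of a member that was called in the fit over all pools turned its direction under an alternative. For adult against PND35, where 0 were called, Taf7l was higher with DESeq2 (1.73) and without adult replicate 2 (2.67) and was -0.27 without adult replicate 1, and Tcfl5 was lower without adult replicate 2 (-1.45) and was 0.32 without adult replicate 1. Leaving out 1 pool kept the side of the threshold in 361 member results, ended the call in 16 and gained one in 7, and the other settings gave 310, 8 and 26. With PND30 alone and a replicate block, 39.4% of genes and 5 members were called between 1N and 4N (14.8% and 0 over all pools) and 1 member between 2N and 1N. In PND30 alone without the block 4 members and 27.6% of genes passed in the first and 0 members and 0% of genes in the second, so that the block itself added 1 member call in each and changed no other. Between 1N and 4N, DESeq2 called 4 members (27.4% of genes), the stricter germ cell gate 2 (14.7%), library size scaling 1 (16.03%) and no cell filter 1 (14.5%). Between 2N and 1N, 0.837% of genes became 1.62% with library size scaling, 0.465% without the filter on low counts and 3.37% with DESeq2. For adult against PND35, from 0%, these settings gave 5.12%, 1.29% and 9.58% of genes, and 1 member with library size scaling and with DESeq2. PND14 alone against PND3 to PND7 gave 16.4% of genes, from 25.2% with PND12. The causes were not tested.

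Leaving out 1 pool gave 30.1% to 40.7% of genes and 2 to 4 members in the first contrast, 9.53% to 22.9% and 4 to 6 for PND12 to PND14, 42.03% to 53.8% and 4 to 7 for PND30 4N against these, 5.83% to 13.6% and 0 to 1 for 1N against 4N, 0% to 2.23% and 0 to 0 for 2N against 1N, and 0% to 21.4% and 0 to 3 for the adult. Shares moved by over 1.5 times without PND12 replicate 2 (9.53%) and PND14 replicate 2 (11.02%) at PND12 to PND14, without 1N replicate 2 (5.83%) and 4N replicate 2 (6.71%) between 1N and 4N, without 2N replicate 1 (2.23%), 2N replicate 2 (0%) and 1N replicate 2 (0.0183%) between 2N and 1N, and without adult replicate 2 (21.4%) and PND35 replicate 2 (0.011%) for the adult. Without thinning, the share of cells with a UMI was 98.6% for Mybl1, 92.8% for Tcfl5 and 99.4% for Rfx2 at PND35, 94.1% for Sox30 and 65.7% for Rfx3 in PND30 1N, 99.3% for Pou5f2 in PND30 4N and 99.7% for Taf7l at PND8. The mean of single-cell CPM was 514 for Taf7l at PND8 and 15.8 for Rfx3 in PND30 1N. The planned fit with only 4N-named cells at PND14 was not run, since 1 replicate holds them.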

Other observations

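The 190 cells of PND30 replicate 2 without a gate also had Mybl1 at 33.4 CPM, Tcfl5 at 28.5 CPM, Rfx2 at 125.8 CPM, Sox30 at 60.9 CPM and Rfx3 at 8.35 CPM. When these cells were split by leading marker list, Rfx3 was 3.40 CPM under the general list and 18.6 CPM under the spermatid list, and Pou5f2 was 189 and 64.6 CPM.

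At PND14 the cells led by the spermatocyte list were richer in Sox30 than those led by the general list, at 40.7 against 8.82 CPM in PND14 replicate 1 and 70.1 against 40.997 CPM in replicate 2. Taf7l was 613 against 439.5 CPM in PND14 replicate 1 and 286 against 293 CPM in replicate 2. At PND12 Taf7l was 759 against 448 CPM in replicate 1 and 463 against 292 CPM in replicate 2. In PND10 replicate 2 it was 548 against 433 CPM. These splits use expression and were not tested.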
